A study of Mus musculus with 14 samples.

Results

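A set of 10 genes that make and load the cargo of secretory granules was followed in primary mouse small cell lung cancer, a neuroendocrine lung carcinoma. They were chosen by name: the prohormone-processing genes Pcsk1, Pcsk2, Cpe, Pam and Pcsk1n, and the amine genes Ddc, Slc18a1, Slc18a2, Tph1 and Dnajc12. The files held all 10 among 23284 genes, and all 10 passed the filter on low counts that left 14804 genes to test. RNA was sequenced in 7 tumours of the Rb1/Trp53/Crebbp genotype (RPC) and 7 of the Rb1/Trp53 genotype (RP), so both groups lacked the tumour suppressors Rb1 and Trp53. RPC tumours were deleted for Crebbp as well, a histone acetyltransferase and transcriptional coactivator. The tumours are numbered in the labels, with no word on whether they came from separate mice, so the p-values speak for the spread among these samples. The sources used here give neither the strain and age nor the way the deletions were induced.

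Neuroendocrine cells cut inactive prohormones into active peptides inside dense-core granules, and the same granules can take up serotonin, dopamine and histamine. Proprotein convertases cut the precursor, a carboxypeptidase trims the exposed basic residues, and an amidating enzyme finishes many peptides. Amines are made in the cytoplasm by a hydroxylase and a decarboxylase, and a vesicular transporter then pumps them into the granule. Pulmonary neuroendocrine cells, a cell of origin of small cell lung cancer, are known for storing serotonin and calcitonin gene-related peptide. CREB, the transcription factor after which the CREB-binding protein Crebbp is named, binds the palindrome TGACGTCA in promoters.

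Promoters were read for this palindrome because Crebbp separates the genotypes. RefSeq windows of GRCm38.p6, running from 250 bases before to 50 bases after a transcript start, were held for 7 of the 10 genes (10 windows), all but Cpe, Slc18a1 and Dnajc12. The palindrome, which reads the same on both strands, was in the windows of Slc18a2 and Pcsk1. It was in 2.03% of all 27025 genes in the table and 1.79% of all 32851 windows. Of the 10481 tested genes with a window, a closer background for these genes, 370 had it, a larger share than of all genes in the table. Both promoters are printed from 220 bases before to 30 bases after the start, 5′ to 3′ on the + strand, at chr19:59260658-59260907 for Slc18a2 and chr13:75089637-75089886 for Pcsk1, with the palindrome in capitals.

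Slc18a2: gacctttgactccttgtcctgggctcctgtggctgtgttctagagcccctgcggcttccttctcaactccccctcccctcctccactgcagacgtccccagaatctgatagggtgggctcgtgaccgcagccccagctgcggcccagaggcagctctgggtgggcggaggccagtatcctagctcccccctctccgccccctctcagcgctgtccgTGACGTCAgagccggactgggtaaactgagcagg

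Pcsk1: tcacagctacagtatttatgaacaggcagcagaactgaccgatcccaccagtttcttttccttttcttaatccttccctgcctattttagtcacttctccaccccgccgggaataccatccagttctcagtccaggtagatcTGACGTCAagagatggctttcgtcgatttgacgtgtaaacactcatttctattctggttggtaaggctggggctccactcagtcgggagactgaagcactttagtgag

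The palindrome began at position -4 in Slc18a2 and at position -78 in Pcsk1, counted from the start. Its shorter form TGACG, searched on both strands and contained in the palindrome, was also in windows of Pcsk2 and Tph1, and so in 4 of the 7 genes. It was in 23.0% of genes in the table, and in a larger share of the tested genes with a window, 3533 of 10481. A match is a run of letters, not a measured binding site.

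Counts in genes came to between 10060969 and 24052799 in RPC libraries and between 10965714 and 23678648 in RP libraries. Levels are given as CPM, counts per 1000000 counts in genes. Crebbp averaged 63.9 CPM in RPC and 77.6 CPM in RP tumours, a log2 fold change of -0.24 ± 0.12 (edgeR quasi-likelihood test, SE; Benjamini-Hochberg adjusted p = 0.264). A count over the whole gene includes any exons that a deletion leaves. RPC tumours 3, 5 and 6 stood apart, with first principal component scores of at least 128 against at most 20.0 in the other 11 libraries. Summed macrophage and monocyte markers were 5.07 to 8.11 CPM in these 3 and 417 to 2080 CPM in the other 11. Summed endothelial markers were 14.8 to 122 CPM in the 3 and 351 to 2432 CPM in the other 11. The label of small cell lung cancer was met in all 14 libraries by neuroendocrine markers, 7 of 7 of them detected, which summed to 2507 to 4675 CPM in RPC and 4573 to 10227 CPM in RP tumours. In bulk tumour RNA, fewer cells of a type and less RNA per cell cannot be told apart. Below, log2 fold changes are RPC over RP, from edgeR's quasi-likelihood test over all 14 libraries with its SE, and adjusted p-values are Benjamini-Hochberg over 14804 genes.

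None of the 10 genes passed an adjusted p of 0.05 in edgeR, where 2.21% of all tested genes did (1.09% higher and 1.12% lower in RPC tumours). At an unadjusted p under 0.05 there were 2, Slc18a2 with a higher and Slc18a1 with a lower RPC mean, beside 21.3% of all tested genes (3156). DESeq2 called 1 of the 10 (Slc18a2), but it also called far more of all tested genes than edgeR did. With limma-voom 0 of the 10 were called. The genotypes overlapped in CPM for every one of the 10, whereas 1.03% of tested genes had groups that did not. Log2 fold changes were negative for 8 of the 10 and positive for Slc18a2 and Pcsk2, with a median of -0.51 against 0.00 over all tested genes. Adjusted p-values ran between 0.125 and 0.907. In counts simulated at this depth and spread, edgeR found 26.8% of 2-fold and 69.1% of 4-fold changes, so a 2-fold change could be missed with this number of tumours. The changed genes were drawn at random from all genes kept by the filter. Of the 10 genes, 8 had an SE above the median of tested genes, so these shares may be too high for them.

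**Figure D1:**
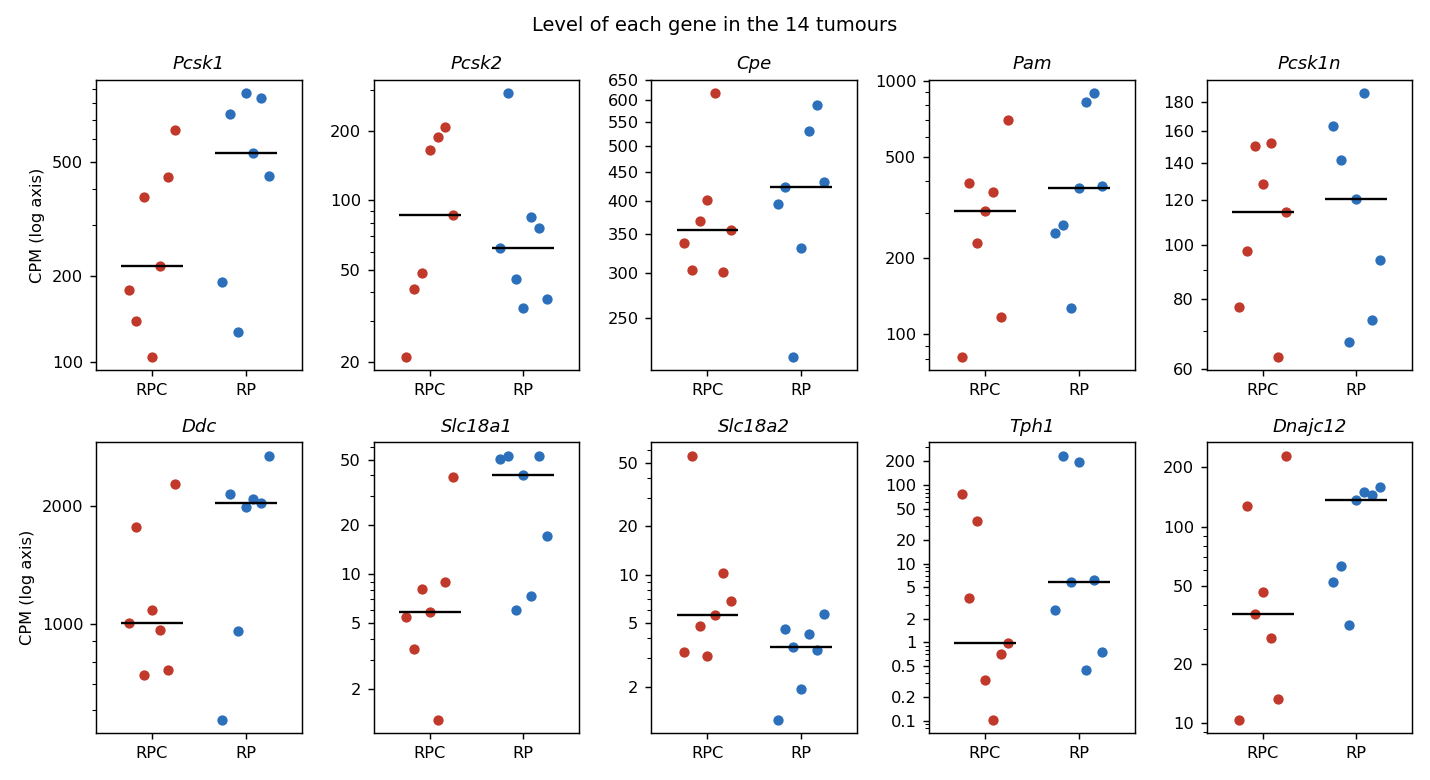
CPM of each gene in every tumour on a log axis, 7 RPC tumours on the left of each panel and 7 RP tumours on the right, with replicates 1 to 7 running left to right within a group and a black line at the group median. The groups overlap in all 10 panels, and Tph1 spans the widest range, between 0.103 and 236 CPM.

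Most of the 10 genes varied more between tumours than a typical gene. The SD of log2 CPM over the 14 libraries was above the median of tested genes for 8 of 10, all but Cpe and Pcsk1n. Tph1 varied more than 99.6% of tested genes, Slc18a1 more than 88.8% and Dnajc12 more than 83.2%. Cpe varied more than 31.9% of tested genes and differed 2.89-fold between its highest and lowest tumour.

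The convertases that make the first cut came out on opposite sides of 0. Pcsk1, prohormone convertase 1/3, was 178, 139, 377, 104, 216, 441 and 646 CPM in RPC tumours 1 to 7, against 190, 732, 127, 869, 537, 834 and 446 CPM in RP tumours 1 to 7. Only RPC tumour 7 exceeded the RP median, yet RP tumours 1 and 3 lay among the low RPC values. The means were 300 ± 197 CPM in RPC and 533 ± 298 CPM in RP tumours (SD, n = 7 each), a log2 fold change of -0.79 ± 0.46 (adjusted p = 0.337, edgeR). Pcsk2, prohormone convertase 2, was 21.0, 41.5, 48.7, 164, 187, 208 and 86.3 CPM in RPC tumours, against 62.0, 291, 45.5, 34.3, 84.5, 76.1 and 37.4 CPM in RP tumours. RPC tumours 4, 5 and 6 were high, but the highest value of all was in RP tumour 2, and both ranges were wide. Its log2 fold change was 0.32 ± 0.57 (edgeR adjusted p = 0.770), and it was -0.18 without RPC tumours 3, 5 and 6.

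The balance of the convertases therefore differed from tumour to tumour. Per kilobase of the longest annotated transcript, Pcsk1 was 7.94, 3.14, 7.26, 0.593, 1.08, 1.99 and 7.02 times Pcsk2 in RPC tumours 1 to 7. The same ratio was 2.87, 2.36, 2.61, 23.7, 5.95, 10.3 and 11.2 in RP tumours 1 to 7. RPC tumour 4 was the only library in which Pcsk2 exceeded Pcsk1, and RPC tumours 5 and 6 came next. Pcsk1n encodes proSAAS, a granule protein that inhibits the Pcsk1 enzyme. It was 77.4, 97.2, 150, 129, 152, 62.9 and 114 CPM in RPC tumours, against 163, 142, 67.0, 121, 187, 73.3 and 93.7 CPM in RP tumours. The groups overlapped over most of their ranges, and the log2 fold change was -0.06 ± 0.26 (edgeR adjusted p = 0.907).

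Cpe, carboxypeptidase E, removes the basic residues left by the convertases. It was 338, 303, 370, 402, 618, 301 and 356 CPM in RPC tumours and 396, 423, 214, 331, 530, 588 and 432 CPM in RP tumours. The extremes went against each other, the highest value in RPC tumour 5 and the lowest in RP tumour 3. The log2 fold change was -0.07 ± 0.22 (edgeR adjusted p = 0.880), a smaller SE than for any other of the 10 genes. Pam, the copper-dependent enzyme that amidates peptide ends, was 81.1, 395, 228, 305, 363, 117 and 699 CPM in RPC tumours and 250.8, 269, 126, 376, 822, 894 and 383 CPM in RP tumours. RPC tumours 1 and 6 lay below every RP tumour, while RPC tumour 7 was below only RP tumours 5 and 6. Its log2 fold change was -0.50 ± 0.47 (edgeR adjusted p = 0.559), and -0.29 without RPC tumours 3, 5 and 6.

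**Figure D2:**
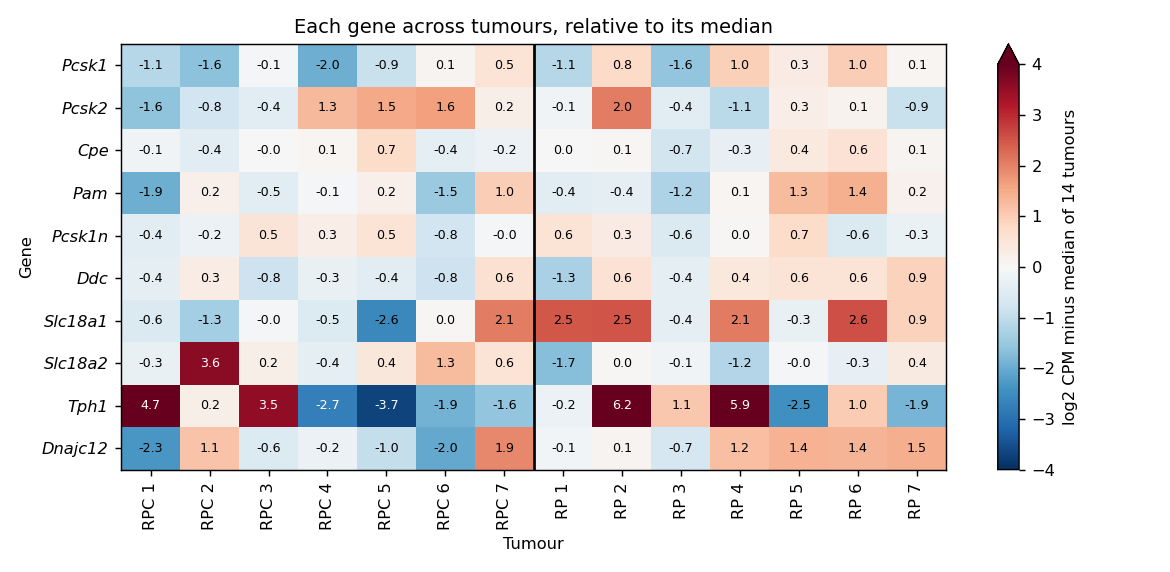
Log2 CPM of each gene minus its median over the 14 tumours, RPC tumours 1 to 7 on the left of the black line and RP tumours 1 to 7 on the right, with red above and blue below the median and the colour scale ending at 4. Tph1 is far above its median in RP tumours 2 and 4 and RPC tumours 1 and 3, and so is Slc18a2 in RPC tumour 2.

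Tph1 encodes the tryptophan hydroxylase of peripheral tissues, which starts serotonin synthesis. It was 76.5, 3.66, 34.3, 0.33, 0.10, 0.70 and 0.97 CPM in RPC tumours 1 to 7, and 2.56, 236, 5.85, 197, 0.45, 6.24 and 0.75 CPM in RP tumours 1 to 7. A few tumours of each genotype carried nearly all of it: RPC tumours 1 and 3 held 95.1% of the RPC sum, and RP tumours 2 and 4 held 96.5% of the RP sum. The lowest library, RPC tumour 5, had 2 Tph1 reads, and the highest was 2282-fold above it. The log2 fold change of -1.80 had an SE of 1.53 (edgeR adjusted p = 0.514) and moved between -3.15 and -0.98 as single libraries were left out. Dnajc12 encodes a co-chaperone of the aromatic amino acid hydroxylases. It was 10.4, 128, 36.0, 46.5, 27.2, 13.4 and 229 CPM in RPC tumours and 52.2, 62.9, 31.7, 137, 150, 144 and 159 CPM in RP tumours. RPC tumours 1, 5 and 6 lay below every RP tumour, RPC tumour 7 lay above every one, and RPC tumour 1 had the lowest Dnajc12 and much Tph1. The log2 fold change was -0.60 ± 0.60 (edgeR adjusted p = 0.588), and -0.05 without RPC tumours 3, 5 and 6.

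Ddc, aromatic L-amino acid decarboxylase, completes both serotonin and dopamine synthesis and was the most abundant of the 10. It was 1004, 1764, 737, 1081, 962, 760 and 2267 CPM in RPC tumours and 568.3, 2147, 960, 1981, 2078, 2029 and 2683 CPM in RP tumours. Only RPC tumour 7 exceeded the RP median, but the lowest value of all was in RP tumour 1. The means were 1225 ± 573 CPM in RPC and 1778 ± 740 CPM in RP tumours (SD, n = 7 each). The log2 fold change was -0.51 ± 0.32 (edgeR adjusted p = 0.377), and -0.22 without RPC tumours 3, 5 and 6. Ddc did not track Tph1 (Pearson's r of 0.08 between log2 CPM values over 14 libraries, a description): RPC tumours 4 to 7 and RP tumours 5 and 7 all had less than 1 CPM of Tph1, with Ddc between 760 and 2683 CPM. Th, the tyrosine hydroxylase that starts dopamine synthesis and was looked up after values had been seen, was 9.77, 2.83, 0.10, 167, 0.26, 0.18 and 0.49 CPM in RPC tumours and 1.46, 27.2, 13.3, 16.8, 7.61, 17.7 and 0.75 CPM in RP tumours. RPC tumour 4, with the highest Th, had 0.33 CPM of Tph1, whereas RP tumours 2 and 4 had both.

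The genes for the vesicular monoamine transporters gave the smallest p-values of the 10, on opposite sides of 0. Slc18a1 encodes VMAT1, the form typical of endocrine cells. It was 5.49, 3.47, 8.05, 5.84, 1.29, 8.89 and 39.4 CPM in RPC tumours 1 to 7, and 50.5, 52.3, 6.01, 40.0, 7.31, 52.8 and 17.02 CPM in RP tumours 1 to 7. No RPC tumour reached the RP median and 4 lay below every RP tumour, but RP tumours 3 and 5 sat among the RPC values and RPC tumour 7 among the RP values. The means were 10.3 ± 13.1 CPM in RPC and 32.3 ± 21.5 CPM in RP tumours (SD, n = 7 each). The log2 fold change was -1.65 ± 0.67 (edgeR unadjusted p = 0.0277, adjusted p = 0.179). RPC tumour 7 alone decided the side of the threshold: without it the log2 fold change was -2.48 ± 0.59 (edgeR adjusted p = 0.0328). Without RPC tumours 3, 5 and 6 it was -1.28 ± 0.77 (edgeR adjusted p = 0.548).

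Slc18a2 encodes VMAT2, the form typical of neurons, mast cells and platelets. It was 3.28, 55.3, 4.77, 3.13, 5.58, 10.3 and 6.81 CPM in RPC tumours 1 to 7, and 1.24, 4.56, 3.53, 1.94, 4.25, 3.40 and 5.70 CPM in RP tumours 1 to 7. RPC tumours 2, 6 and 7 lay above every RP tumour and 5 of 7 above the RP median, and RPC tumour 2 stood far above the rest with 605 reads. The means were 12.7 ± 18.9 CPM in RPC and 3.52 ± 1.53 CPM in RP tumours (SD, n = 7 each). The log2 fold change was 1.84 ± 0.64 (edgeR unadjusted p = 0.0120, adjusted p = 0.125). Without RPC tumour 2 it was 0.71 ± 0.40 (edgeR adjusted p = 0.302), and DESeq2 on all 14 libraries gave 1.87 (adjusted p = 0.0348). In simulated counts DESeq2 made more false calls than edgeR, 31 of 151 calls against 1 of 94. Slc18a2 lies on chromosome 19, where the median log2 fold change of 501 tested genes was 0.46, against 0.00 over all tested genes. The part of this shift in the Slc18a2 value was not tested.

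Of the genes next to Slc18a2 on chromosome 19, the neighbours on either side were less raised in RPC tumour 2 than Slc18a2 itself. Log2 CPM in RPC tumour 2 minus the RP mean was 4.03 for Slc18a2, 1.02 for Eno4 and 0.77 for Pdzd8. Farther along on one side, it was 1.46 for Hspa12a, -0.88 for Gfra1, 2.16 for Atrnl1 and 0.29 for Trub1. On the other side it was 1.16 for Rab11fip2 and between 0.45 and 0.66 for Nanos1, Eif3a and Sfxn4. Over all 14 libraries, log2 fold changes were 1.72 for Hspa12a, 1.33 for Rab11fip2 and 1.09 for Atrnl1, beside 1.84 for Slc18a2. The other neighbours ran between -2.10 for Gfra1 and 0.79 for Sfxn4. Atrnl1, an attractin-like membrane protein gene, was also the gene whose log2 CPM followed Slc18a2 most closely over the 14 libraries. Pearson's r was 0.87 and Spearman's rho 0.75. The search covered 13407 genes with a mean of at least 1 CPM, without the 10 genes and genes with Gm or Rik names. RPC tumour 2 was the highest library for both genes, with Atrnl1 at 152 CPM against 76.6 CPM in RPC tumour 6, the next. Mast cells and platelets, which carry Slc18a2, were checked by their markers. Of 10 mast cell markers 8 stayed below 1 CPM in every library, among them Ms4a2 at 0 in all of them and Cpa3 at most 0.25 CPM. The other 2 were Hdc, the histamine-forming decarboxylase, and Kit. Hdc was 31.9 CPM in RPC tumour 2, the highest of the 14 libraries, against 21.98 CPM in RP tumour 2, the next. Kit, which tumour cells can express, made up most of the list's sum of 37.8 to 177 CPM in RPC and 95.8 to 245 CPM in RP tumours. Platelet and megakaryocyte markers summed to 4.93 to 54.8 CPM in RPC and 19.7 to 64.7 CPM in RP tumours, with RPC tumour 2 the highest RPC library. Itgb3 made up most of its sum, at 48.9 CPM. The other markers in RPC tumour 2 were 2.83 CPM for Pf4, 1.92 for Itga2b, 1.10 for Gp1ba, 0.09 for Ppbp and 0 for Gp9. That tumour also had the highest sums of all 14 libraries for macrophage and monocyte markers (2080 CPM) and alveolar type 2 markers (3114 CPM). The part of these cells in its Slc18a2 value was not tested.

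**Figure D3:**
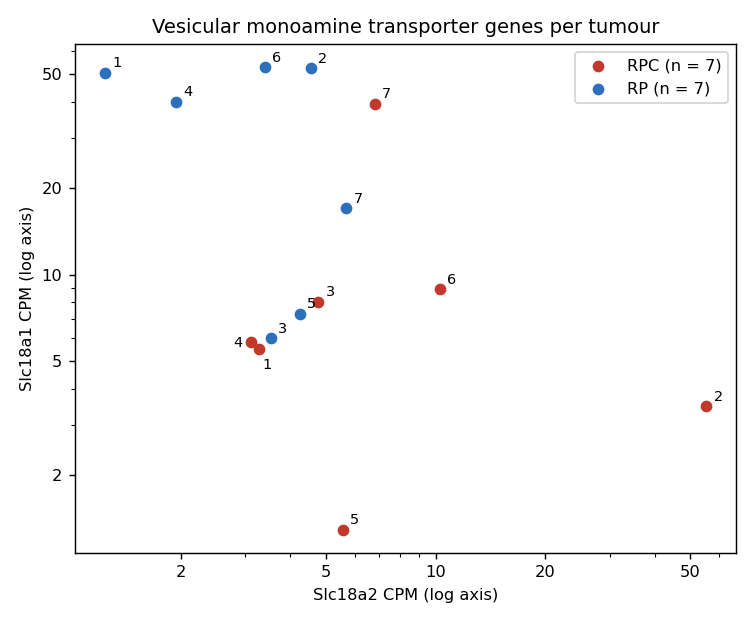
Slc18a1 against Slc18a2 in CPM, both on log axes, with RPC tumours in red and RP tumours in blue, numbered 1 to 7. The 4 tumours with the most Slc18a1, between 40.0 and 52.8 CPM, are all RP, and RPC tumour 2 lies alone on the right at 55.3 CPM of Slc18a2.

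Per kilobase, Slc18a1 was 2.36, 0.0886, 2.38, 2.63, 0.326, 1.22 and 8.16 times Slc18a2 in RPC tumours 1 to 7. The ratio was 57.4, 16.2, 2.40, 29.1, 2.42, 21.9 and 4.22 in RP tumours 1 to 7. Slc18a1 was thus the more abundant form in 7 of 7 RP tumours and 5 of 7 RPC tumours, the exceptions being RPC tumours 2 and 5. This ratio was formed after the values had been seen and carries no test.

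Per kilobase of transcript, the order of the 10 means was the same in both genotypes. Ddc had the highest mean, at 607 ± 284 CPM per kilobase in RPC and 881 ± 366 in RP tumours (SD, n = 7 each), and its range did not overlap that of Cpe, the next, in either genotype. Cpe was 181 ± 51.6 CPM per kilobase in RPC and 197 ± 58.4 in RP tumours. Pam, Pcsk1, Pcsk1n, Dnajc12, Pcsk2, Tph1 and Slc18a1 followed in that order of means, each overlapping the next. Slc18a2 had the lowest mean, at 2.90 ± 4.31 CPM per kilobase in RPC and 0.800 ± 0.348 in RP tumours, and its range stayed clear of that of Slc18a1 in RP tumours only. By medians, a choice made after seeing the data, the order differed between the genotypes, and only Ddc, Cpe and Slc18a1 kept their places. Pcsk1 was in place 5 in RPC and place 3 in RP tumours. Tph1 had the lowest median in RPC tumours, at 0.213 CPM per kilobase against 1.27 for Slc18a2. Tph1 exceeded Slc18a1 in only 2 of 7 tumours of each genotype.

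Tumours were not uniformly rich or poor in these genes. RPC tumour 7 and RP tumour 2 each ranked among the top 4 of the 14 libraries for 5 of the genes and among the bottom 4 for none. RPC tumour 1 was among the bottom 4 for 7 genes, and RPC tumour 6 and RP tumour 3 for 6 each. Over the 14 libraries, Pam and Dnajc12 followed each other most closely, with Pearson's r of 0.86 between log2 CPM values, and of 0.90 over the 11 libraries other than RPC tumours 3, 5 and 6. Ddc and Dnajc12 gave an r of 0.75, Pcsk1 and Slc18a1 one of 0.63, and the vesicular transporter genes one of -0.49. These libraries share a genotype, a depth and a content of other cells in part, so the coefficients are descriptions. Among the same 13407 genes as searched for Slc18a2, Fa2h followed Slc18a1 most closely (r of 0.92 over 14 libraries). Slc5a9 followed Pcsk1 (0.93) and Siae followed Ddc (0.89).

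**Figure D4:**
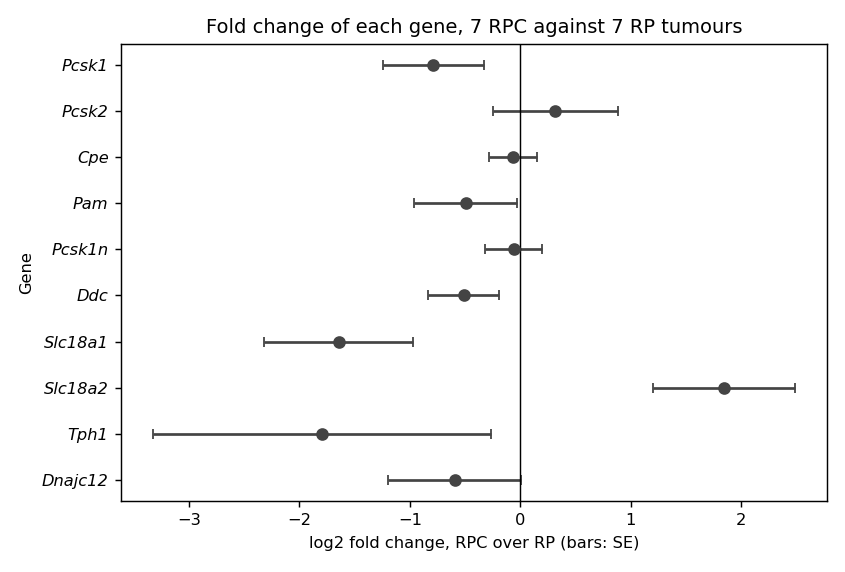
Log2 fold change of each gene, RPC over RP, as a point with its SE as a bar, from edgeR over 7 RPC and 7 RP tumours. Slc18a2 lies farthest right at 1.84 and Tph1 farthest left at -1.80, with the widest bar.

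Genes around the 10 were read from lists of their pathways. Of the 7 other proprotein convertases none was called (3 higher, 4 lower, median log2 fold change -0.34). Furin, the convertase of the constitutive secretory route, was 68.0 ± 22.3 CPM in RPC and 106 ± 31.04 CPM in RP tumours (SD, n = 7 each), a log2 fold change of -0.61 ± 0.22 (edgeR adjusted p = 0.144), and -0.33 without RPC tumours 3, 5 and 6. Of 8 tested trimming enzymes and chaperones none was called (2 higher, 6 lower, median -0.52). Scg5, which encodes 7B2, the chaperone that Pcsk2 needs to mature, was 73.7 ± 22.4 CPM in RPC and 127 ± 63.3 CPM in RP tumours, with a log2 fold change of -0.74 ± 0.27 (edgeR adjusted p = 0.144). Copper supply and granule acidification, which Pam and the transporters depend on, gave 6 higher and 3 lower of 9, none called, with a median of 0.08. Atp6v1h, a subunit of the vacuolar proton pump, was 102 ± 19.2 CPM in RPC and 75.2 ± 10.1 CPM in RP tumours (log2 fold change 0.47 ± 0.15, edgeR adjusted p = 0.102), and its log2 fold change was 0.24 without RPC tumours 3, 5 and 6.

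On the amine side, 5 of 11 other synthesis and breakdown enzymes were tested, all with positive log2 fold changes and none called (median 0.37). Maoa, the monoamine oxidase that prefers serotonin, was 41.1 ± 9.53 CPM in RPC and 32.1 ± 5.47 CPM in RP tumours (log2 fold change 0.39, edgeR adjusted p = 0.226). The fold change of Th, positive in this fit at 1.14 ± 1.36 (edgeR adjusted p = 0.649), was -2.32 without RPC tumour 4 and 1.95 without RPC tumours 3, 5 and 6. Tetrahydrobiopterin is the cofactor of the aromatic amino acid hydroxylases, and 6 of the 7 genes that make or recycle it were lower and 1 higher, none called (median -0.17). Gch1, the rate-limiting enzyme of that route, was 105 ± 81.3 CPM in RPC and 230 ± 182 CPM in RP tumours, and Pts, its next step, 14.8 ± 5.74 CPM in RPC and 28.7 ± 13.9 CPM in RP tumours. Their log2 fold changes were -1.09 ± 0.55 for Gch1 and -0.93 ± 0.34 for Pts (edgeR adjusted p = 0.267 and 0.143). Of 11 other amine and precursor transporters 5 were tested, 4 higher, 1 lower and none called (median 0.75). Slc3a2, a subunit of an amino acid transporter that lies on chromosome 19 like Slc18a2, was 133 ± 40.2 CPM in RPC and 90.7 ± 13.3 CPM in RP tumours (log2 fold change 0.59 ± 0.19, edgeR adjusted p = 0.1004), and its log2 fold change was 0.35 without RPC tumours 3, 5 and 6.

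The only call among the 89 tested list genes was in the list for the granule itself. That share does not exceed the 2.21% of all tested genes called in either direction. Of 25 tested genes of dense-core vesicle formation and release, 20 were lower and 5 higher (median -0.37), and 1 was called, beside 1.12% of all tested genes called lower. Ica1, islet cell autoantigen 1, which helps to form secretory granules, was 47.1, 50.6, 63.9, 40.8, 38.2, 67.2 and 54.5 CPM in RPC tumours, and 125, 87.5, 97.6, 104, 78.0, 97.9 and 73.2 CPM in RP tumours. Every RPC tumour lay below every RP tumour. Ica1 fell by 0.84 ± 0.16 on the log2 scale (edgeR adjusted p = 0.0244). The call was lost without RP tumour 6 (adjusted p = 0.0512), without RPC tumours 3, 5 and 6 (-0.97, adjusted p = 0.0780) and with a term for non-tumour markers (-0.97, adjusted p = 0.104). The unadjusted edgeR p of Ica1 was 0.000211, 0.000113 and 0.000160 in these fits, in that order, against 0.000109 in the fit reported. Ptprn2, a granule membrane protein related to tyrosine phosphatases, had a log2 fold change of -1.02 ± 0.33 (edgeR adjusted p = 0.104).

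The substrates of these enzymes, granins and peptide precursors, gave 3 higher and 9 lower of 12 tested, none called, with the lowest median of the lists, -0.82. Calca, the precursor of calcitonin gene-related peptide, was 520 ± 799 CPM in RPC and 2310 ± 2113 CPM in RP tumours (log2 fold change -2.11, edgeR adjusted p = 0.237). Vgf, a neuroendocrine peptide precursor, had a log2 fold change of -1.71 (edgeR adjusted p = 0.145). Of 11 tested neuroendocrine transcription factors, 8 were lower and 3 higher, none called (median -0.39). Foxa2, a lung and endocrine transcription factor, was 146 ± 39.9 CPM in RPC and 240 ± 57.6 CPM in RP tumours (log2 fold change -0.69 ± 0.21, edgeR adjusted p = 0.0827). Its part in the levels of the 10 genes was not tested.

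**Figure D5:**
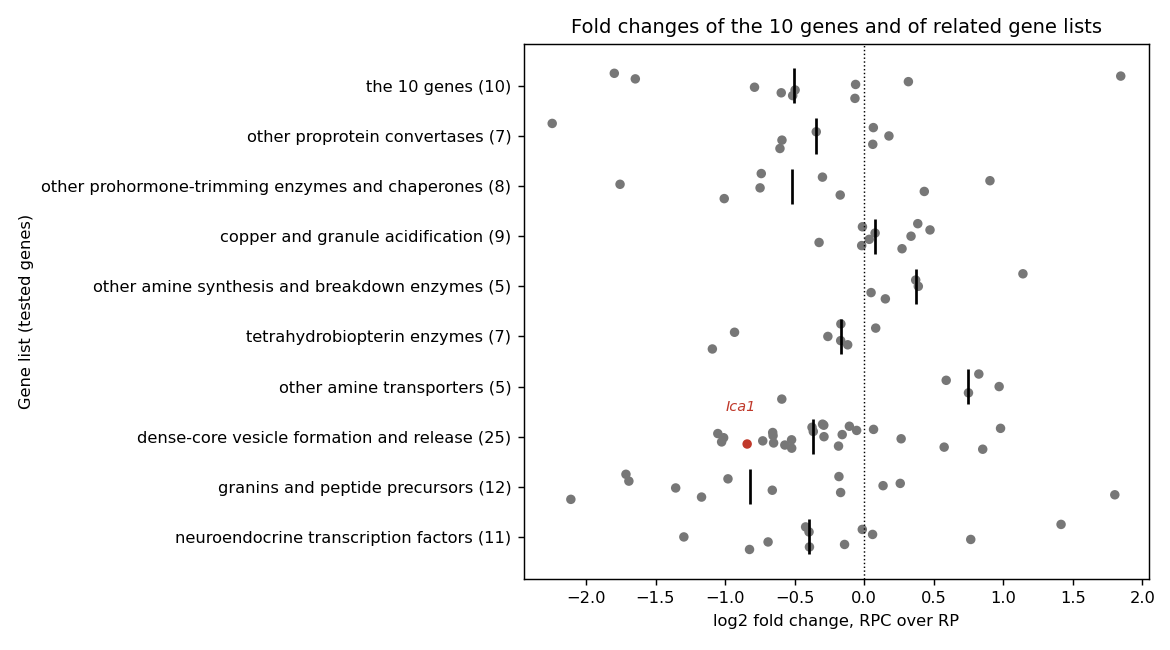
Log2 fold change, RPC over RP, of every tested gene in the 10 genes and 9 related lists, with a black line at each median and the number of tested genes in parentheses. Ica1, in red, is the only called gene, and the medians run between -0.82 for granins and peptide precursors and 0.75 for other amine transporters.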

How the data were processed

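The 14 libraries came from 7 RPC and 7 RP tumours. Per the labels' protocols, RNA from TRIzol lysates was selected with oligo dT and made into libraries with a NEBNext Ultra kit. The deposited files hold raw read counts per gene, not normalized. The submitters' processing notes name the mm9 genome, TopHat2 2.0.12, HTSeq 0.6.1 and bcl2fastq 1.8.2. The sources used here do not give the annotation or the strand setting.

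The 5 lines that name no gene were left out of totals and tests; reads outside genes were 15.1% to 20.5% of a file, reads with several alignments 8.44% to 11.2% and ambiguous reads 0.883% to 1.09%. CPM is the count scaled by the library total in genes, and log2 CPM uses TMM scaling and a prior count of 2. In R 4.3.3, edgeR 4.0.16 (filterByExpr, minimum count 10 and minimum total 15, TMM) tested RPC against RP without covariates, with Benjamini-Hochberg adjustment over 14804 genes and a threshold of 0.05. The SE is the log2 fold change over the root of F. No pair of libraries was a repeat (chi-square per degree of freedom of at least 59.2). DESeq2 1.42.0 and limma 3.58.1 were alternatives. In simulated counts for this comparison (14603 genes, 200 of them changed before the filter), edgeR made 94 calls, 1 of them false, and DESeq2 151, 31 of them false.

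Transcript lengths are GENCODE's on GRCm38, and chromosomes and promoters RefSeq's, matched by symbol. The 10 genes and all lists were chosen with earlier results of these data known. List genes were named from the 3 with the smallest p per list; values of Th by tumour, the ratios, Slc6a4 and Fev were chosen after values were seen. Some list genes are not reported here.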

Additional observations from a re-analysis of the deposited data

Results flagged for a closer look

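Each group of 7 tumours was examined for a highest or lowest value that stood apart from the next by more than 0.568 of the group's range (Dixon's 95% critical value for 7), for all 10 genes in both genotypes. Of the 20 groups 4 met this. Chance gives about 1 in 20 for normally distributed values, which CPM need not be. On log2 CPM, a scale chosen after seeing the data, 2 of the 20 met it: Slc18a2 in RPC tumour 2 (gap 0.584) and Cpe in RPC tumour 5 (0.570). On that scale the gap was 0.434 for Slc18a1 in RPC tumour 7 and 0.565 for Pcsk2 in RP tumour 2. On the CPM scale, Slc18a2 in RPC tumour 2 was 55.3 CPM, with the next RPC tumour at 10.3 CPM and a gap of 0.863 of the range. Slc18a1 in RPC tumour 7 was 39.4 CPM, with the next RPC tumour at 8.89 CPM and a gap of 0.801. Cpe in RPC tumour 5 was 617.8 CPM, with the next RPC tumour at 402 CPM and a gap of 0.680. Pcsk2 in RP tumour 2 was 290.7 CPM, with the next RP tumour at 84.5 CPM and a gap of 0.804. The causes were not tested.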

How the results depend on the processing

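Over 26 alternatives to the edgeR fit (scalings, filters, tools, added terms and left-out libraries), 250 of 260 values for the 10 genes kept their direction and their side of the threshold. The number of the 10 called was 0 in the fit reported, 1 with DESeq2 and 0 to 1 as each library was left out. The number of all genes called was 327 in the fit reported. It was 1431 with DESeq2, 503 with limma-voom, 86 with a term for Xist, 6 with a term for non-tumour markers, 11 without RPC tumours 3, 5 and 6, and between 51 and 898 with single libraries left out. Of list genes 1 was called as reported, 8 with DESeq2, 2 with limma-voom, 0 with the non-tumour term, 0 without RPC tumours 3, 5 and 6, and 0 to 4 with single libraries left out. The fit did not pair tumours by replicate number. Deviations of same-numbered tumours correlated above 0.1 in 3 of 7 pairs, between -0.05 and 0.32, and 3 RPC libraries correlated best with their own number. These correlations cannot settle whether the numbers pair the tumours, because libraries also share a content of other cells in part. With the number as a replicate block, 74 genes and none of the 10 were called. Directions turned for Pcsk2 (-0.39 with the non-tumour term, -0.18 without RPC tumours 3, 5 and 6) and for Dnajc12 (0.016 with the non-tumour term). As single libraries were left out, Cpe ran between -0.23 and 0.022, Pcsk1n between -0.17 and 0.074 and Th between -2.32 and 1.42. Th was also -1.97 with DESeq2, -2.09 with limma-voom, -2.48 with the replicate block and -1.96 with the Xist term. The cause was not tested. Scalings moved the median of all genes by at most 0.03 on the log2 scale. Of 702 values for named list genes, 682 were unchanged in direction and call. Tph1 in 4 RPC libraries rests on 2 to 10 reads, where depth limits the value.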

Other observations

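RNA levels of the serotonin-related genes Slc6a4 and Fev differed between tumours of 1 genotype in ways that the group comparison does not show. These genes were chosen after their values were seen, and serotonin itself was not measured. In most libraries Slc6a4 rested on at most 21 reads. Slc6a4, the serotonin uptake transporter, was 0.33, 4.39, 0.10, 15.7, 0.15, 0.00 and 0.39 CPM in RPC tumours 1 to 7, and 1.53, 0.36, 0.15, 0.42, 29.9, 0.28 and 1.13 CPM in RP tumours 1 to 7. The highest values, in RPC tumour 4 and RP tumour 5, were in tumours with less than 0.5 CPM of Tph1. Fev, a transcription factor of serotonin neurons, was 10.8, 2.10, 2.98, 0.25, 45.1, 5.19 and 0.19 CPM in RPC tumours, and 4.82, 23.1, 1.88, 3.76, 2.09, 0.23 and 58.5 CPM in RP tumours. Its highest values, in RPC tumour 5 and RP tumour 7, were also in tumours low in Tph1, while RP tumour 2 had both. 

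Among the 370 tested genes with TGACGTCA in a promoter window, edgeR called 4 higher and 3 lower (1.89%), with a median log2 fold change of 0.09, beside 2.21% of all tested genes.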
